A study of Homo sapiens with 25 samples.

Results

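The genes described here build or serve the primary cilium, and 45 of them were listed. The list was chosen with earlier results of these data in view: the rise of BBS9 in all 3 lines prompted it, and the other 44 were taken as genes of the same organelle, to see whether they rise as growth stops. A gene was read from the probe set that carries its symbol alone and had the highest mean over the 25 arrays. Of the 45 genes, 44 had such a probe set, since that of TTC21B carries more than 1 symbol, and 43 lay above a log2 value of 4 on at least 3 arrays and entered the fits. DZIP1, a basal body protein, stayed below 4 on every array. BBS9 is given as values with no test, because its rise chose the list, so counts of changed genes are over the other 42 cilium genes, out of 12643 genes tested and 19775 measured.

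The primary cilium is a single, non-motile projection that grows from the older centriole of a cell outside mitosis and is taken down again before division. It is built and kept up by intraflagellar transport (IFT), in which the IFT-B complex travels towards the tip with a kinesin-2 motor and the IFT-A complex returns with dynein-2 and also brings membrane proteins in. The BBSome, named after Bardet-Biedl syndrome, is a coat that rides on these trains and carries receptors out of the cilium. At the base, the transition zone is a gate formed by the proteins altered in Meckel, Joubert and nephronophthisis syndromes. In breast epithelium cilia are found mostly on basal and stromal cells, and many breast cancer lines carry few.

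Transcripts were measured on 25 Affymetrix arrays of 3 human cell lines given the EGFR kinase inhibitor erlotinib at 10 µM. BT20, derived from a breast cancer and rich in EGFR, was sampled 0 min, 30 min, 6 h and 24 h after the drug (4 arrays at 0 min, 3 at each later time). MDA-MB-453, derived from a breast cancer and rich in ERBB2, and a line labelled only MCF were sampled at 24 h and 0 min (3 arrays each), MCF as Part 2 of the study and the others as Part 1. All cells were plated in medium with 10% serum and left for 24 h to attach before the drug. No group was kept for 24 h without the drug, so drug and time in culture cannot be told apart. The values are log2 GCRMA values (background-corrected, normalized probe set summaries), and a change is the difference of 2 group means in log2 units. Errors after ± are limma's standard errors, or SD where so marked. A gene was called at an adjusted p under 0.05 (limma, Benjamini-Hochberg over 12643 genes, each line fitted on its own). The labels do not say whether replicates were separate cultures, so p measures the spread between these samples. In such bulk samples a change in the share of cells that express a gene and a change in RNA per cell cannot be told apart.

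The upper quartile of an array lay between 7.65 and 7.81 in Part 1 and between 7.27 and 7.32 in Part 2, and levels of different lines are set side by side for Part 1 alone. One array stood apart: replicate 4 of BT20 at 0 min correlated at 0.99 to 0.992 with the 6 h arrays and at 0.971 to 0.975 with the other 0 min arrays. BT20 results are therefore also given from a fit with a term that sets replicate 4 and the 6 h arrays apart from the other BT20 arrays. There, only replicate 4 serves as 0 min for the 6 h change, and replicates 1 to 3 serve for the 24 h change. A single array has no spread of its own, so the errors and p-values of that 6 h change take theirs from the other BT20 arrays and assume that replicate 4 varies like them. Some markers of the lines are given here. At 0 min the BT20 arrays averaged 12.38 for EGFR, 12.37 for KRT5 and 8.15 for ERBB2, against 3.53, 2.86 and 11.07 on those of MDA-MB-453. Not every marker was high: the basal marker KRT14 averaged 3.89 in BT20 at 0 min, below the log2 value of 4 used as a filter. In MCF the mean for ESR1 was 12.47. FOXJ1, DNAI1, TEKT1 and SPAG6, which mark cells with many motile cilia, had group means of 3.03 or less in every group. The other 4 of the 8 markers passed the filter, with highest group means of 7.72 for DNAH5 and 5.43 for CAPS in BT20, and of 6.47 for RSPH1 and 4.33 for CIMAP3 in MCF. None of the 3 blood cell markers with a probe set of their own passed the filter, and of 6 fibroblast markers COL1A1 and COL3A1 did.

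A short sequence was more frequent in the promoters of these genes than in all promoters. RFX factors, transcription factors that switch on ciliary genes from worms to mammals, bind the X-box, a pair of facing arms. GTTGCC was taken here as the sequence of an arm, and arms with other letters were not searched for. RefSeq promoters (GRCh38.p14, 250 bases before to 50 after the gene start) were at hand for 40 of the 45 genes, and those of BBS9, IFT22, WDR35, TMEM67 and TCTN2 were not used here. GTTGCC, read on both strands, stood in 17 of the 40 (42.5%), against 12.2% of all 35116 promoters of this length and 12.7% of the promoters of the genes tested. Stretches around the match are shown for 7 genes that rose in BT20 at 24 h and hold it within 60 bases of their start, on the strand of the gene, with GTTGCC or its reverse complement GGCAAC in capitals.
BBS1 (chr11:66510606-66510664, plus strand): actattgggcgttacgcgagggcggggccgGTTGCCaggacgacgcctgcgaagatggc
TTC8 (chr14:88824587-88824652, plus strand): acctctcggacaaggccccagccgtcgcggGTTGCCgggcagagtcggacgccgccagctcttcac
IFT27 (chr22:36776125-36776190, minus strand): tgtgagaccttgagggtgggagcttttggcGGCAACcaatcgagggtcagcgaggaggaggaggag
IFT81 (chr12:110124327-110124386, plus strand): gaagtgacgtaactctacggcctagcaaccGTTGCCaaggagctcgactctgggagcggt
IFT122 (chr3:129440182-129440247, plus strand): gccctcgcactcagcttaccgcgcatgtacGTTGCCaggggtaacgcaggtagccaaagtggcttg
TCTN1 (chr12:110614099-110614158, plus strand): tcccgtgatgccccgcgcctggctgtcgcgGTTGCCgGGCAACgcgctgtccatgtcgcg
B9D2 (chr19:41364122-41364187, minus strand): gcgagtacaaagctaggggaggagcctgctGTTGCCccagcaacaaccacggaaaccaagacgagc

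In TCTN1 matches on opposite strands face each other 1 base apart. The same arrangement stood in TCTN3, so in 2 of the 40 promoters (5%), against 22 of all 35116 (0.0626%); it was looked for after the sequences had been seen. The match did not separate the genes that rose from the rest: it stood in 9 of the 21 promoters of cilium genes that rose in BT20 at 24 h (42.9%) and in 7 of the 17 other tested ones (41.2%). The forkhead site GTAAACA, on both strands, stood in 1 of the 40 (2.5%), that of IFT20, against 3.42% of all promoters and 2.28% of those of the genes tested. A match is a description of the letters and says nothing of binding.

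BBS9, a core subunit of the BBSome, is given first because its rise prompted the list. It read 5.40, 5.41, 5.49 and 5.93 in BT20 at 0 min, 5.21, 5.28 and 5.79 at 30 min, 6.18, 6.36 and 6.18 at 6 h, and 6.95, 6.87 and 7.07 at 24 h. In MDA-MB-453 it read 7.34, 7.33 and 7.80 at 24 h, against 6.84, 6.34 and 6.16 at 0 min. In MCF it read 6.53, 6.33 and 7.16 at 24 h, against 5.87, 4.92 and 6.04 at 0 min. No 24 h array overlapped the 0 min arrays of its line. The mean at 24 h exceeded that at 0 min by 1.40 in BT20, by 1.04 in MDA-MB-453 and by 1.06 in MCF. The mean at 6 h in BT20 exceeded it by 0.68. The other probe sets of BBS9 differed by 1.23 and 0.07 in BT20 at 24 h.

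**Figure D1:**
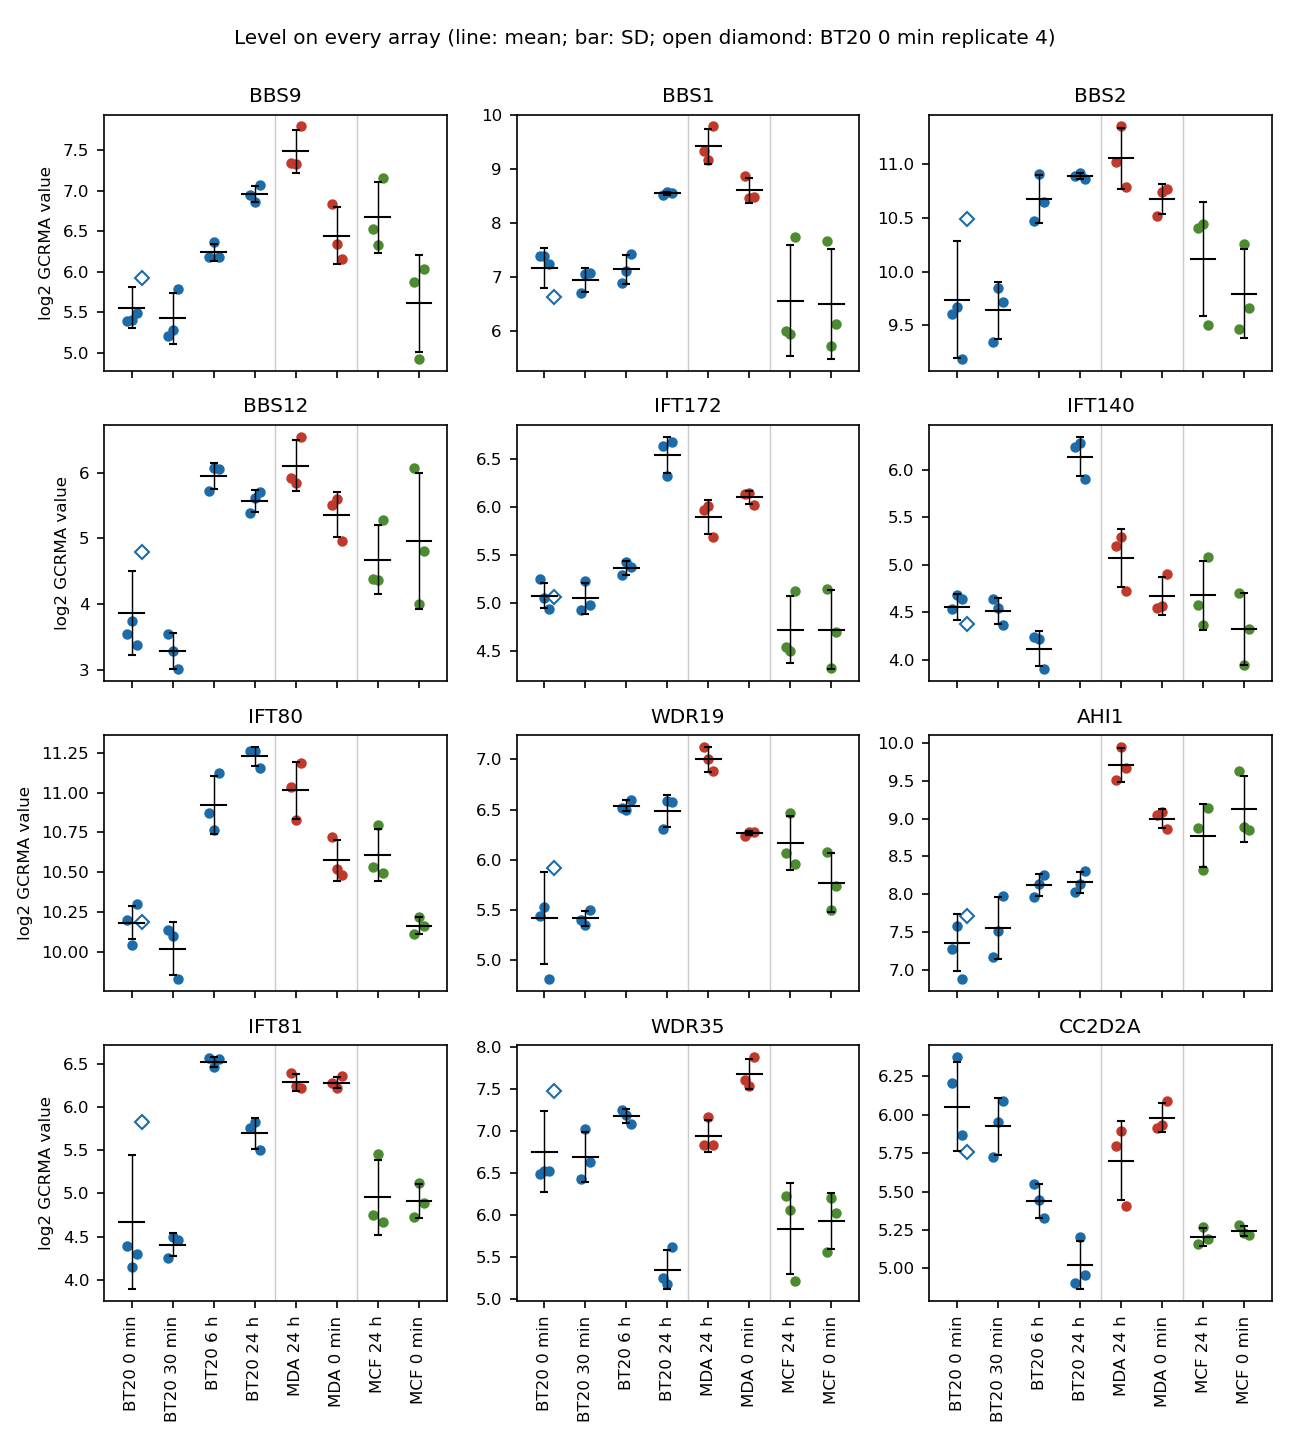
The log2 GCRMA value of 12 cilium genes on every array, by line and time after erlotinib; MDA stands for MDA-MB-453, horizontal lines are group means, bars are SD, and the open diamond is replicate 4 of BT20 at 0 min. IFT172 and IFT140 are higher at 24 h than at 0 min in BT20 with no overlap, WDR35 and CC2D2A are lower, and for IFT81 replicate 4 lies among the 24 h values.

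At 24 h in BT20 the cilium genes moved mostly up. Of the 42 genes, 21 rose and 3 fell, where 24.1% of all genes tested were called up and 18.3% called down. The median change was 0.42 for the cilium genes and 0.03 for all genes, and 34 of the 42 changes were above 0. The share of all genes above 0 is not given here. With replicate 4 and the 6 h arrays set apart, 26 rose and 4 fell, against 30.6% of all genes up and 24.9% down. All 24 genes called before were called again, and BBS7, BBS10, IFT52, IFT88, TMEM216 (up) and MKKS (down) were added. The genes are given complex by complex.

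Of the 6 BBSome subunits tested, 4 rose at 24 h in BT20 and none fell. BBS1, the subunit that binds the GTPase ARL6, read 8.52, 8.57 and 8.56 at 24 h, against 7.40, 7.40, 7.25 and 6.63 at 0 min (change 1.38 ± 0.19, n = 3 and 4, limma adjusted p = 8.57e-05). BBS2, which forms the core with BBS7 and BBS9, read 10.89, 10.92 and 10.86 at 24 h, against 9.61, 9.67, 9.19 and 10.49 at 0 min (1.15 ± 0.24, adjusted p = 0.00214). Replicate 4 was the highest of the 0 min arrays for BBS2 and the lowest for BBS1, and the times did not overlap for either gene. BBS4 and TTC8, subunits built of helical repeats, rose by 0.78 ± 0.20 and 0.44 ± 0.12. BBS7 (0.45 ± 0.24, adjusted p = 0.153) did not pass, and BBS5, which binds membrane lipids, lay below 4 on every BT20 array.

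Of the 3 chaperonin-like proteins that assemble the BBSome, BBS12 rose. It read 5.38, 5.61 and 5.71 at 24 h, against 3.54, 3.74, 3.38 and 4.80 at 0 min (1.70 ± 0.28, adjusted p = 0.000348). No array overlapped, and the 0 min mean of 3.87 lies below 4, so the size is inexact. BBS10 (0.20 ± 0.47) and MKKS (-0.15 ± 0.07) did not pass, nor did ARL6, the GTPase that recruits the BBSome to membranes (0.17 ± 0.15). With replicate 4 set apart BBS10 differed by 0.77 (adjusted p = 0.00209).

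Of 11 IFT-B proteins 6 rose and 1 fell. IFT172, the long outer subunit that in algae is needed for trains to turn round at the tip, read 6.63, 6.32 and 6.67 at 24 h, against 5.25, 5.05, 4.94 and 5.06 at 0 min (1.47 ± 0.12, adjusted p = 8.54e-07). IFT80, another outer subunit, read 11.26, 11.26 and 11.16 at 24 h, against 10.20, 10.04, 10.30 and 10.19 at 0 min (1.04 ± 0.11, adjusted p = 1.11e-05). The 24 h arrays lay clear of all 4 arrays of 0 min for both genes, replicate 4 included.

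IFT81 and IFT74 form the pair that binds tubulin cargo. IFT81 read 5.75, 5.83 and 5.50 at 24 h, against 4.39, 4.15, 4.30 and 5.83 at 0 min (1.03 ± 0.31, adjusted p = 0.0187), and its partner IFT74 read 8.90, 8.77 and 8.78, against 7.76, 7.72, 8.08 and 8.16 (0.89 ± 0.13, adjusted p = 0.000131). For IFT81 replicate 4 lay among the 24 h arrays, while IFT74 did not overlap. IFT27, a small GTPase-like subunit needed for the BBSome to leave the cilium, read 9.40, 9.29 and 9.36 at 24 h, against 8.46, 8.62, 8.43 and 7.98 at 0 min (0.98 ± 0.13, adjusted p = 7.02e-05). IFT46, a core subunit, rose by 0.48 ± 0.10.

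IFT20, the subunit that also sits at the Golgi, was the one that fell. It read 10.64, 10.64 and 10.61 at 24 h, against 10.99, 10.86, 10.89 and 10.85 at 0 min (-0.27 ± 0.08, adjusted p = 0.0132). The core subunits IFT52 (0.23 ± 0.12) and IFT88 (0.40 ± 0.20) and the subunits IFT22 (0.26 ± 0.11) and IFT57 (0.03 ± 0.08) did not pass.

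All 5 IFT-A proteins tested were called, 4 up and 1 down. IFT140, of the IFT-A core, read 6.24, 6.29 and 5.90 at 24 h, against 4.53, 4.68, 4.64 and 4.37 at 0 min (1.59 ± 0.13, adjusted p = 1.13e-06). WDR19, also of the core, read 6.31, 6.59 and 6.57, against 5.45, 5.53, 4.81 and 5.92 (1.06 ± 0.20, adjusted p = 0.000802). IFT122, the third core protein, read 7.30, 7.28 and 7.37, against 6.53, 6.77, 6.45 and 6.02 (0.87 ± 0.15, adjusted p = 0.000587). None of the 3 core proteins, all of them called, overlapped between the times, and the share of all genes without overlap is not given here. Of the outer subunits, IFT43 rose by 0.72 ± 0.10 while WDR35 went the other way, at 5.25, 5.19 and 5.63 at 24 h, against 6.50, 6.53, 6.53 and 7.48 at 0 min (-1.40 ± 0.23, adjusted p = 0.000341). A second WDR35 probe set differed by -0.88.

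At the transition zone 5 of 12 genes rose and 1 fell. AHI1 (jouberin) read 8.04, 8.13 and 8.31 at 24 h, against 7.28, 7.58, 6.87 and 7.71 at 0 min (0.80 ± 0.21, adjusted p = 0.00876), but its 3 other probe sets differed by 0.10, -0.45 and -0.12. TCTN1 (0.73 ± 0.10), RPGRIP1L, the scaffold of the gate (0.61 ± 0.12), and the lipid-binding-like proteins B9D2 (0.57 ± 0.12) and B9D1 (0.33 ± 0.11) rose as well. CC2D2A, which anchors the tectonic complex in the same gate, read 4.90, 5.20 and 4.96 at 24 h, against 6.21, 6.38, 5.87 and 5.76 at 0 min (-1.03 ± 0.15, adjusted p = 0.000166), with no overlap. CEP290, which tethers the membrane to the microtubules, differed by -0.41 ± 0.32 and did not pass, nor did TMEM67, TMEM216, TMEM231, TCTN2 or TCTN3.

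INVS (inversin), which marks the compartment above the transition zone, rose by 0.70 ± 0.14. NPHP4 (0.20 ± 0.09), the kinesin-2 motor KIF3A (-0.31 ± 0.23) and OFD1 of the centriole tip (0.19 ± 0.10) did not pass. Of the 24 genes called, 9 had other probe sets of the same gene, 13 in all, and 11 of these 13 differed in the same direction. Both exceptions were of AHI1.

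**Figure D2:**
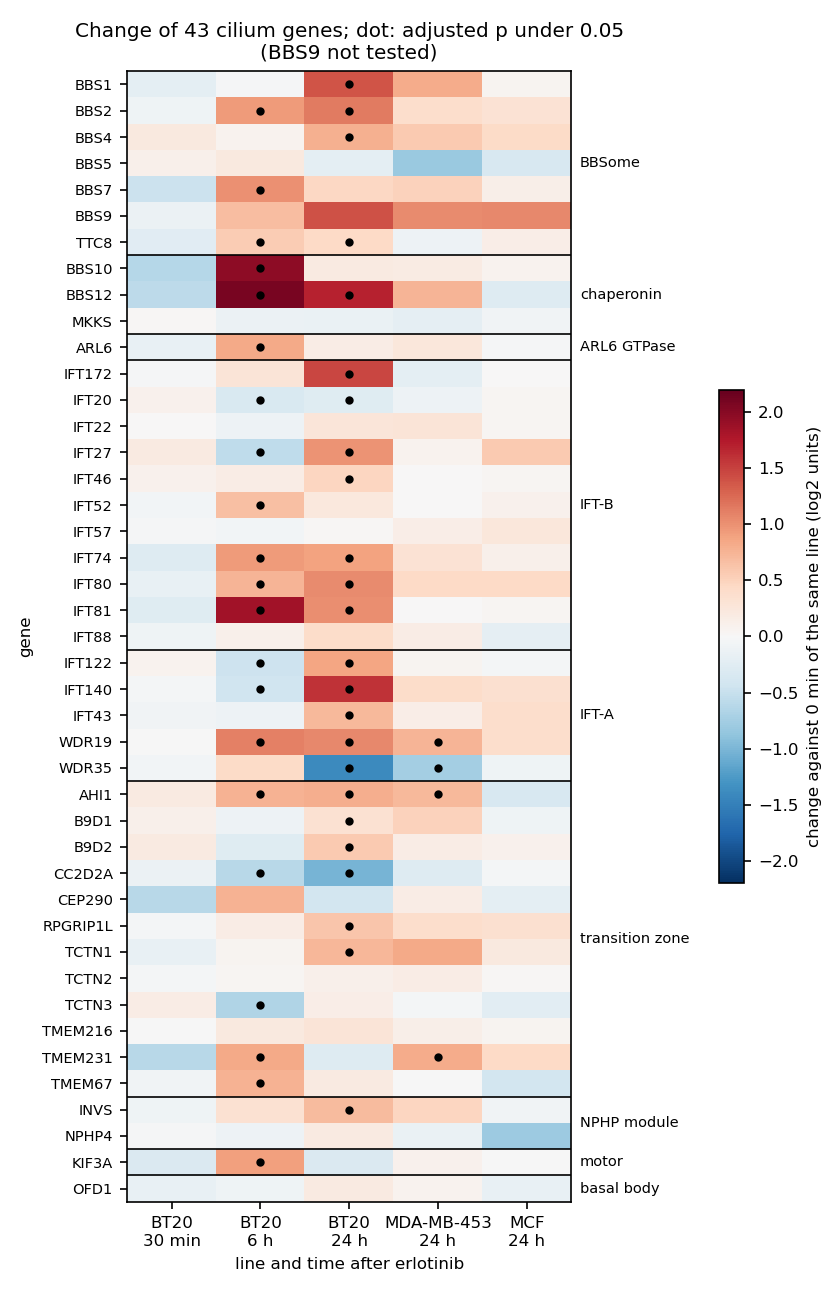
Change of 43 cilium genes (rows, grouped by role) against 0 min of the same line, in log2 units from blue (lower) to red (higher), for 5 comparisons (columns); a dot marks an adjusted p under 0.05, and BBS9 was not tested. The BT20 24 h column holds 24 dots and the 6 h column 21, while MDA-MB-453 holds 4 and the BT20 30 min and MCF columns hold none.

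Earlier in the BT20 course the picture differed. At 30 min no cilium gene was called by limma, and 0% of all genes were called up and 0.00791% down. At an unadjusted p under 0.05, 0 were up and 2 down, with no such count over all genes given here. The fit to all 25 arrays also called 0 cilium genes, and over all genes 0 up and 2 down. The median change was -0.06 for the cilium genes and -0.02 for all genes. The 3 with the smallest p were TMEM231 (-0.61 ± 0.15, adjusted p = 0.786), IFT74 (-0.29 ± 0.13, adjusted p = 0.916) and TTC8 (-0.25 ± 0.12, adjusted p = 0.916). For TMEM231, a membrane protein of the transition zone, the arrays read 4.85, 4.89 and 4.66 at 30 min, against 5.29, 5.23, 5.29 and 5.80 at 0 min.

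At 6 h 15 of the 42 rose and 6 fell, where 26.1% of all genes were called up and 25.9% down. The median was 0.19 for the cilium genes and -0.01 for all genes. The count depended on which arrays stood for 0 min. With replicate 4 and the 6 h arrays set apart, 5 were called up and none down (3.62% and 3.61% of all genes), the median was 0.10, and at an unadjusted p under 0.05 11 were up and 1 down. The fit to all 25 arrays, which has no such term, called 15 up and 3 down. Over all genes that fit called 2726 up and 2101 down, against 3304 and 3275 with BT20 fitted alone. The share of all genes at an unadjusted p under 0.05 is not given here.

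Of the genes that rose in BT20 at 6 h against all 4 arrays of 0 min, 4 were also called up against replicate 4 alone, namely BBS12, IFT74, IFT80 and IFT81. BBS12 read 5.71, 6.07 and 6.06 at 6 h, against 3.54, 3.74, 3.38 and 4.80 at 0 min. The change was 2.08 ± 0.28 (adjusted p = 0.000342) against all 0 min arrays and 1.15 ± 0.21 (adjusted p = 0.00624) against replicate 4. Replicate 4 was the highest of the 0 min arrays and still lay below every 6 h array.

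IFT81 read 6.56, 6.46 and 6.55 at 6 h, above replicate 4 at 5.83 and the others at 4.15 to 4.39, and its change was 1.85 ± 0.31 in the first fit and 0.70 ± 0.15 in the second. IFT74 read 8.87, 8.77 and 8.97 at 6 h (0.94 ± 0.13 and 0.71 ± 0.17). IFT80 read 10.87, 10.77 and 11.12 at 6 h and gave nearly the same value in both fits, 0.74 ± 0.11 and 0.73 ± 0.16. BBS4 read 7.63, 7.34 and 7.24 at 6 h, against 7.66, 7.44, 7.55 and 6.68 at 0 min, and did not pass in the first fit (0.07 ± 0.20). Against replicate 4 alone, the lowest of its 0 min arrays, the difference was 0.72 ± 0.17 (adjusted p = 0.0226), a call that rests on that 1 array.

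Other genes were called up in the first fit but not against replicate 4. BBS10 read 7.98, 7.92 and 8.14 at 6 h, against 5.35, 5.47, 5.62 and 7.77 at 0 min. The change was 1.96 ± 0.47 (adjusted p = 0.00567) in the first fit and 0.25 ± 0.25 (adjusted p = 0.594) in the second. WDR19 read 6.52, 6.50 and 6.60 at 6 h, against 5.45, 5.53, 4.81 and 5.92 at 0 min (1.11 ± 0.20 and 0.62 ± 0.22). Its replicate 4 lay between the other 0 min arrays and those of 6 h. BBS7 read 8.85, 8.79 and 8.96, against 7.64, 7.58, 7.76 and 8.48 at 0 min (1.00 ± 0.24 and 0.38 ± 0.26). BBS2 read 10.47, 10.91 and 10.64 and overlapped replicate 4 (0.94 ± 0.24 and 0.19 ± 0.22). None of these 4 passed in the second fit.

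The 6 genes that fell at 6 h in the first fit included 3 that were higher at 24 h. IFT140 read 4.24, 4.21 and 3.90 at 6 h (-0.44 ± 0.13, adjusted p = 0.0147) and IFT27 read 7.88, 7.81 and 7.75 (-0.56 ± 0.13, adjusted p = 0.00531). IFT122 read 5.89, 6.01 and 6.06 (-0.46 ± 0.15, adjusted p = 0.0266) and lay around replicate 4 at 6.02. With replicate 4 set apart the changes were -0.25, -0.16 and -0.03, and none passed. The other 3 were TCTN3, a tectonic (-0.66 ± 0.15), CC2D2A (-0.61 ± 0.15) and IFT20 (-0.33 ± 0.08), which did not pass in the second fit either. CC2D2A and IFT20 were the 2 that fell in BT20 at both 6 h and 24 h, CC2D2A with 5.55, 5.44 and 5.33 and IFT20 with 10.57, 10.64 and 10.48 on the 6 h arrays.

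**Figure D3:**
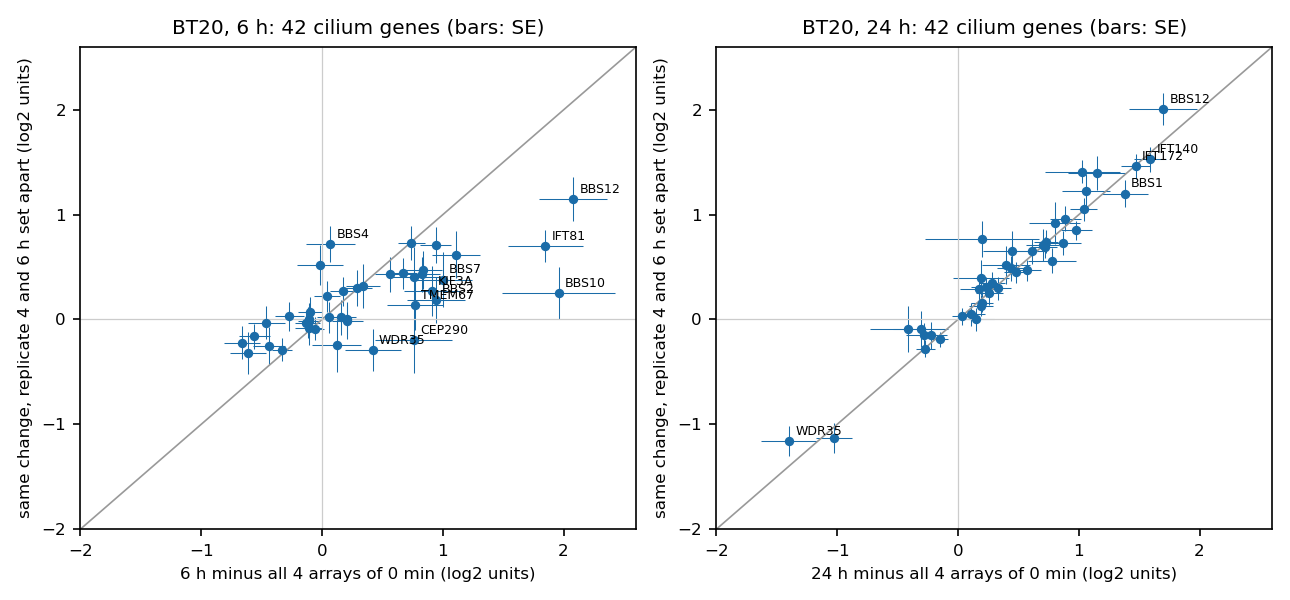
Change of 42 cilium genes in BT20 at 6 h (left) and 24 h (right), in log2 units, against all 4 arrays of 0 min (horizontal axis) and in the fit that sets replicate 4 and the 6 h arrays apart (vertical axis); bars are standard errors and the diagonal marks equal values. At 6 h BBS10 lies at 1.96 and 0.25, far from the diagonal, while at 24 h the points lie closer to it.

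In MDA-MB-453 at 24 h 3 cilium genes rose and 1 fell, where 5.66% of all genes were called up and 2.64% down. The median change was 0.16 for the cilium genes and 0.02 for all genes, and 32 of the 42 changes were above 0. The share of all genes above 0 is not given here. WDR19 lay between 6.88 and 7.13 at 24 h, against 6.24 to 6.28 at 0 min (0.74 ± 0.10, n = 3 each, limma adjusted p = 0.0096). AHI1 read 9.51, 9.95 and 9.67, against 9.05, 9.09 and 8.86 (0.71 ± 0.14, adjusted p = 0.031), and its other probe sets differed by 0.04, -0.38 and 0.10. Both genes had also risen in BT20.

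TMEM231, which at 24 h in BT20 read 4.88, 5.20 and 5.28 and did not pass there (-0.28 ± 0.15), rose in MDA-MB-453. It read 7.78, 7.57 and 7.62 at 24 h, against 7.21, 6.54 and 6.77 at 0 min (0.82 ± 0.18, adjusted p = 0.0405). WDR35 fell, as in BT20, and read 6.83, 7.17 and 6.84 at 24 h, against 7.62, 7.54 and 7.89 at 0 min (-0.74 ± 0.14, adjusted p = 0.0296). None of the 4 overlapped between the times, but they were picked by their calls, and the share of all genes without overlap is not given here.

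Next in order of p came BBS1 (0.82 ± 0.19, adjusted p = 0.0531) and IFT80 (0.44 ± 0.13, adjusted p = 0.0871). At an unadjusted p under 0.05, 12 were up and 2 down, with no such count over all genes given here. These calls in MDA-MB-453 changed with single arrays: without 24 h replicate 1, 0 cilium genes were called, without 24 h replicate 2, 5, and without 24 h replicate 3, 2. Without 0 min replicate 1 it was 2, and without 0 min replicate 2 or 3 it was 1. Calls over all genes moved as well, from 715 up and 334 down to 193 and 68 without 24 h replicate 1. Without 24 h replicate 2 they were 608 and 262, and without 24 h replicate 3, 534 and 251. Without 0 min replicate 1, 2 or 3 they were 321 and 93, 272 and 109, and 280 and 107. With the mean of all probe sets of a gene 1 of the 42 was called, and with replicate number as a block 0. Over all genes the mean of probe sets called 709 up and 426 down, and the block 3 up and 0 down.

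In MCF at 24 h limma called none of the 42 cilium genes, and 0% of all genes up and 0.00791% down. At an unadjusted p under 0.05, IFT80 was up and TMEM67 down, with no such count over all genes given here. The fit to all 25 arrays, which lends MCF the smaller spread of the other lines, called 1.17% of all genes up and 2.02% down and none of the 42. IFT80 read 10.53, 10.79 and 10.49 at 24 h, against 10.11, 10.22 and 10.16 at 0 min (0.44 ± 0.16, adjusted p = 0.714). TMEM67, the receptor-like protein of the transition zone, read 7.10, 6.98 and 6.87, against 7.52, 7.36 and 7.28 (-0.41 ± 0.15, adjusted p = 0.789). The third by p was TMEM231 (0.43 ± 0.23, adjusted p = 1). The median change was 0.05 for the cilium genes and -0.01 for all genes. The 3 arrays of a group spread widely in MCF, as for BBS1, at 6.01, 5.95 and 7.75 at 24 h and 7.66, 5.73 and 6.14 at 0 min, so a missed threshold does not show that a gene stayed the same.

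The 24 h changes of the 42 genes correlated across genes at 0.56 between BT20 and MDA-MB-453, 0.29 between BT20 and MCF and 0.37 between MDA-MB-453 and MCF, against 0.33, 0.34 and 0.25 over all genes. Each line has its own 0 min arrays, and genes are not independent replicates.

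Whether the 24 h change itself differed between lines was tested by an interaction term in limma. Between BT20 and MDA-MB-453 it was called for 10 of the 42 genes, 8 higher and 2 lower in BT20, where 11.4% of all genes were called higher and 10.4% lower. IFT proteins made up 7 of the 8, and the 42 genes include 11 IFT-B and 5 IFT-A proteins. IFT172 changed by 1.47 in BT20, against -0.21 in MDA-MB-453 (difference 1.68 ± 0.17, adjusted p = 1.46e-06), where it read 5.97, 6.01 and 5.69 at 24 h, against 6.13, 6.14 and 6.02 at 0 min. That of IFT140 was 1.59 and 0.40 (1.19 ± 0.22, adjusted p = 0.000776). In MDA-MB-453 IFT140 read 5.20, 5.29 and 4.73 at 24 h, against 4.55, 4.57 and 4.91 at 0 min, which overlap.

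IFT27 changed by 0.98 in BT20, against 0.08 in MDA-MB-453 (0.89 ± 0.18, adjusted p = 0.00179), and IFT122 by 0.87 and 0.06 (0.81 ± 0.21, adjusted p = 0.00897). Smaller differences were called for IFT80 (0.60 ± 0.17), IFT74 (0.57 ± 0.18) and TTC8 (0.55 ± 0.18), and IFT46 was called too (0.47 ± 0.13). The 2 that were lower in BT20 belong to the transition zone. TMEM231 changed by -0.28 in BT20, against 0.82 in MDA-MB-453 (-1.10 ± 0.24, adjusted p = 0.00304), and CC2D2A by -1.03 and -0.28 (-0.75 ± 0.22, adjusted p = 0.023). In the fit to all 25 arrays 6 of the 42 were called.

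Between BT20 and MCF the difference was called for 6 genes, 4 higher and 2 lower in BT20, where 8.53% of all genes were called higher and 4.92% lower. IFT172 changed by 1.47 in BT20 and 0.00 in MCF (1.47 ± 0.27, adjusted p = 0.00132) and IFT140 by 1.59 and 0.35 (1.24 ± 0.28, adjusted p = 0.00575). BBS12 (1.98 ± 0.59, adjusted p = 0.0331) and IFT80 (0.60 ± 0.17, adjusted p = 0.029) were higher in BT20, and CC2D2A (-0.99 ± 0.21, adjusted p = 0.0039) and WDR35 (-1.31 ± 0.39, adjusted p = 0.0354) were lower. IFT80, IFT140, IFT172 and CC2D2A were thus called against both lines, in comparisons that share the BT20 arrays. The count moved with single arrays: it was 3 without BT20 24 h replicate 1 or 2 or MCF 24 h replicate 1, 11 without MCF 24 h replicate 3, and 12 without BT20 0 min replicate 4. Over all genes 1078 were called higher and 622 lower with every array. Without BT20 24 h replicate 1 it was 860 and 469, and without replicate 2, 864 and 481. Without MCF 24 h replicate 1 it was 866 and 488, and without replicate 3, 1349 and 753. Without BT20 0 min replicate 4 it was 1590 and 935.

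**Figure D4:**
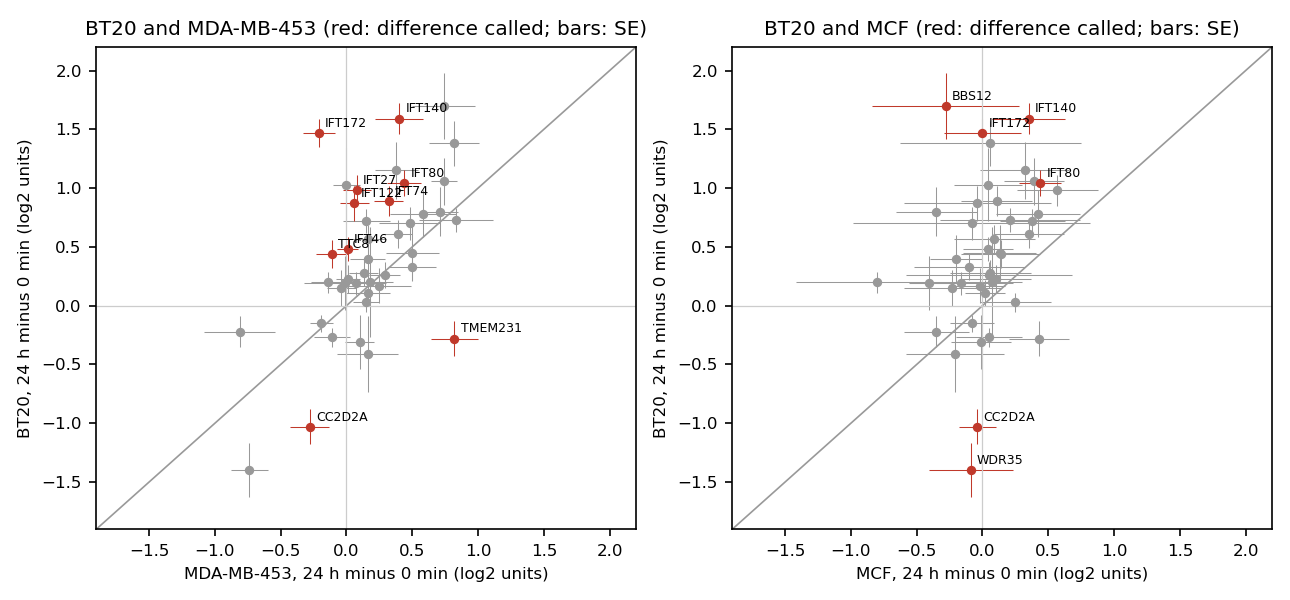
The 24 h change of 42 cilium genes in BT20 (vertical axes) against that in MDA-MB-453 (left, horizontal axis) and in MCF (right, horizontal axis), in log2 units; bars are standard errors, the diagonal marks equal change, and red points are genes whose difference between lines was called. IFT172 and IFT140 lie well above the diagonal in both panels and CC2D2A below it.

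Before the drug BT20 had lower levels of most cilium genes than MDA-MB-453. Of the 42 genes, 29 were lower in BT20 and 7 higher, where 37.9% of all genes were called lower and 36.7% higher. The median difference was -0.95, and -0.58 with the mean of all probe sets of a gene and BBS9 counted. BBS9, whose 0 min arrays entered the rise that prompted the list, averaged 5.56 in BT20 and 6.45 in MDA-MB-453. The other 6 BBSome subunits tested all differed, 5 of them lower in BT20. BBS5 averaged 1.81 ± 0.15 in BT20, against 5.23 ± 0.13 in MDA-MB-453 (SD, n = 4 and 3, limma adjusted p = 4.8e-11), and BBS10 averaged 6.05 ± 1.15, against 8.63 ± 0.20 (SD). CEP290 averaged 5.61 in BT20, against 8.47 in MDA-MB-453 (difference -2.86 ± 0.30), TTC8 7.32, against 9.15 (-1.83 ± 0.12), and TCTN1 4.92, against 6.58 (-1.65 ± 0.18). AHI1 (-1.64 ± 0.20) was lower too, but the mean of its probe sets was not (0.09).

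The gene furthest the other way was IFT57, an outer IFT-B subunit. It read 10.18, 10.06, 10.22 and 10.19 in BT20, against 2.44, 2.48 and 2.39 in MDA-MB-453 (adjusted p = 1.23e-20). It stayed below 4 on the 24 h arrays of MDA-MB-453 too, at 2.69, 2.46 and 2.62, so the size of the difference of 7.72 is inexact, and the same holds for that of BBS5. B9D1 (1.20 ± 0.14), INVS (0.97 ± 0.18), BBS4 (0.90 ± 0.23), IFT22 (0.83 ± 0.11), B9D2 (0.82 ± 0.13) and the chaperonin MKKS (0.61 ± 0.07) were the others higher in BT20. IFT140, CC2D2A, IFT122, IFT20, TCTN2 and OFD1 did not pass.

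**Figure D5:**
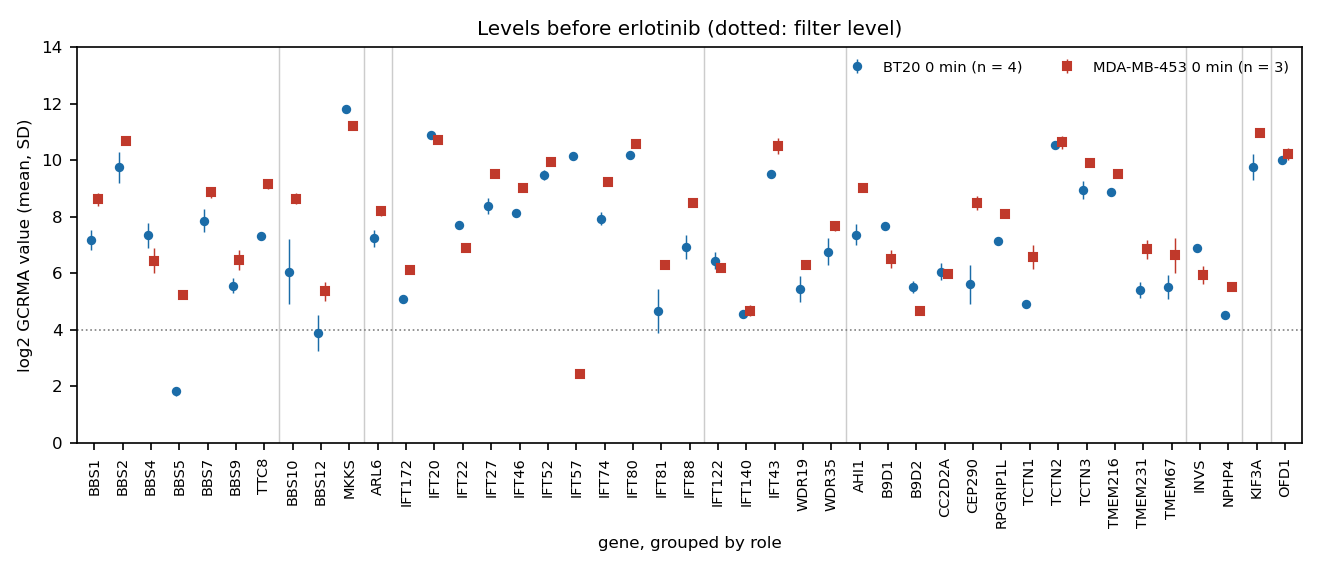
Mean log2 GCRMA value of 43 cilium genes before erlotinib in BT20 (circles, n = 4) and MDA-MB-453 (squares, n = 3), with SD bars, genes grouped by role and the filter level of 4 dotted. Most circles lie below their square, IFT57 lies at 10.16 in BT20, against 2.44 in MDA-MB-453, and BBS5 at 1.81 and 5.23.

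Other genes of the pathway were read from lists chosen with earlier results of these data known. The counts of these and the following lists are to be read beside those of all genes tested. In BT20 at 24 h 24.1% of all genes were called up and 18.3% down, with a median change of 0.03. At 6 h it was 26.1% up and 25.9% down, and in MDA-MB-453 5.66% up and 2.64% down. Of 12 further IFT, dynein-2 and kinesin-2 genes, 8 rose and none fell in BT20 at 24 h (median 0.44), among them the dynein-2 parts DYNC2I1 (0.92 ± 0.11, adjusted p = 2.25e-05), DYNLT2B (1.02 ± 0.16) and DYNC2H1, the motor chain itself (0.84 ± 0.14). At 6 h 8 rose and 3 fell, and with replicate 4 set apart 1 rose and none fell. Of 20 further ciliary membrane and transition zone genes, 7 rose and 1 fell at 24 h (median 0.06). BBIP1, the smallest BBSome subunit (2.22 ± 0.20, adjusted p = 2.78e-06), and LZTFL1, which holds the BBSome back from the cilium (1.49 ± 0.17), rose at 24 h, and had risen at 6 h against all 0 min arrays (2.10 ± 0.20 and 1.41 ± 0.17), the difference from replicate 4 alone being 1.46 and 0.89. Of the 20, 10 rose and 4 fell at 6 h, and 3 were called up and none down against replicate 4. PDE6D and TMEM107 rose at 24 h as well (1.28 ± 0.14 and 1.20 ± 0.14). In MDA-MB-453 none of the 12 was called, and of the 20 the cyclase ADCY3 (-0.76 ± 0.11) and TMEM138 (-0.50 ± 0.10) fell.

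Of 15 genes that turn a centriole into a basal body, 5 rose and 1 fell in BT20 at 24 h (median 0.03), with KIAA0586 up (0.86 ± 0.11) and SCLT1 down (-1.11 ± 0.29). SCLT1 fell in MDA-MB-453 too (-0.92 ± 0.18). In BT20 at 6 h it was higher against all 0 min arrays (1.03, limma adjusted p = 0.0116), but differed by only 0.09 from replicate 4 alone. Against all 0 min arrays 5 of the 15 rose and 3 fell at 6 h. Of 10 genes that hold back or take down cilia, 1 rose at 24 h, the tubulin deacetylase HDAC6, at 1.51 ± 0.19 in BT20 (adjusted p = 4.31e-05), and in MDA-MB-453 HDAC6 rose (0.76 ± 0.09, adjusted p = 0.0074) and PLK1 fell (-0.44 ± 0.09). AURKA, the kinase that starts disassembly, differed by 0.14 ± 0.08 in BT20 and did not pass. At 6 h in BT20 CCP110 (1.4), CEP97 (1.29) and NEK2 (0.71) of these 10 genes were called up against all 0 min arrays, and the rest did not pass. The differences of CCP110, CEP97 and NEK2 from replicate 4 alone were 0.27, 0.78 and 0.63.

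Of 6 regulators tested, 3 rose in BT20 at 24 h and none fell: RFX5 (1.10 ± 0.09), RFX3 (0.90 ± 0.15), whose mean was 4.00 at 24 h and 3.11 at 0 min, and RFX1 (0.45 ± 0.14), at 4.10 and 3.65, both near or below the filter level of 4. RFX5 is known for MHC class II genes and RFX3 for cilia. At 6 h in BT20 RFX5 (0.44), RFX7 (0.66), RFX1 (0.45) and RFX3 (0.42) were called up against all 0 min arrays, and the rest did not pass. The means of RFX1 and RFX3 lay near or below 4 there too. From replicate 4 alone RFX5, RFX7, RFX1 and RFX3 differed by 0.22, 0.3, 0.07 and 0.41. MYB, another of the regulators, differed by -0.7 from replicate 4 alone and by 0.11 from all 0 min arrays. None of the 6 was called in MDA-MB-453. Of 8 Hedgehog pathway genes, whose signal runs through the cilium, 3 rose (BOC, SUFU and PTCH1) and 2 fell (GAS1 and CDON) in BT20 at 24 h, with the mean of CDON at 24 h below the filter level of 4. At 6 h in BT20 3 rose and 2 fell, and BOC (-1.03, adjusted p = 0.00543) and GAS1 (1.06, adjusted p = 0.035) went the opposite way to 24 h. Against replicate 4 none of the 8 was called at 6 h, where BOC differed by -0.24 and GAS1 by -0.33. In MDA-MB-453 GPR161 was called up, but it averaged 4.14 at 24 h and 3.53 at 0 min, so the size is inexact. Of 5 motile cilia genes, CAPS (1.60 ± 0.12, from a 0 min mean of 3.84) and SPAG16 rose and DNAH5 fell (-1.32 ± 0.19) in BT20 at 24 h, and CAPS rose in MDA-MB-453. In MCF no gene of these 7 lists was called.

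The cell cycle genes were read beside the cilium genes. In BT20 at 24 h 12 of 20 proliferation genes fell and none rose (median -0.50), with the replication licensing factor CDC6 at -1.26 ± 0.17 and the proliferation marker MKI67 at -0.25 ± 0.08 (adjusted p = 0.0225). At 6 h 5 rose and 5 fell, and none was called with replicate 4 set apart. In MDA-MB-453 and in MCF none of the 20 was called (medians -0.15 and -0.35), CDC6 differing by -0.26 ± 0.13 and -0.84 ± 0.18. Of 9 arrest-linked genes, 4 rose and none fell in BT20 at 24 h, with the cyclin CCNG2 at 2.33 ± 0.26, and with replicate 4 set apart 5 rose and 1 fell. The one that fell was CDKN1A, the CDK inhibitor p21, at -1.12 (adjusted p = 2.7e-06), against -0.74 ± 0.31 (adjusted p = 0.0723) with all 0 min arrays. In MDA-MB-453 3 of the 9 rose, with KLF9 at 0.91 ± 0.13, and in MCF none was called. At 6 h in BT20 6 rose and 1 fell, CCNG2 at 2.75 ± 0.26 and CDKN1A at -1.09 ± 0.31 (adjusted p = 0.0125). Against replicate 4 these were 1.84 and 0.05, and 3 of the 9 were called up and none down, while the median proliferation gene stood at 0.05 in both fits. Whether these changes are linked was not tested.

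The cell type markers were read beside these changes. In BT20 at 24 h EGFR, of 5 basal markers, fell (-0.54 ± 0.10), and of 9 luminal markers ESR1 rose (0.45 ± 0.10) and GATA3 fell (-0.45 ± 0.11). The basal marker LAMB3 did not pass (-0.56 ± 0.37), but with replicate 4 set apart it differed by -1.01 (limma adjusted p = 0.000119). KRT14, AGR2 and TFF1 were also called down, but their means lay below 4 at both times and are not read as changes. Both markers of the line with high ERBB2 rose (1.31 and 1.37), and neither fibroblast marker tested was called. Of the 4 multiciliated markers tested CAPS rose and DNAH5 fell. Markers called in BT20 at 6 h against all 0 min arrays included KRT5 (-0.85), EGFR (-0.47), LAMB3 (-2.09), GATA3 (-0.66), KRT8 (-0.76), KRT18 (-0.69) and ESR1 (0.35). In that order they differed from replicate 4 alone by -0.46, -0.26, -0.74, -0.46, -0.35, -0.49 and 0.31. In MDA-MB-453 CAPS rose, the basal marker LAMB3 was called down with means of 2.65 at 24 h and 3.52 at 0 min, both below 4, and in MCF none was called. The part of these in the results above was not tested.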

How the data were processed

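Expression of 54613 probe sets was measured on 25 Affymetrix arrays. The authors deposited log2 values made with GCRMA 2.20.0 in R 2.11.1, per the submitters' processing notes. The members and gene lists were chosen with earlier results of these data known. Of the probe sets, 41091 carried 1 symbol, 1801 several and 11721 none. Tests covered the 12643 genes that exceeded a log2 value of 4 on 3 or more arrays, in R 4.3.3 with limma 3.58.1 (lmFit, eBayes), each line alone, and for differences between lines both lines in 1 fit, with Benjamini-Hochberg adjustment over all genes and calls at adjusted p under 0.05. No depth exists for arrays, so their number limits the precision. The term for replicate 4 and the 6 h arrays of BT20 came from an earlier analysis of these data; no label calls them a batch. Every cilium gene was accounted for by role. Values in every array were planned for BBS9 (with no test), genes called in at least 2 of the 5 changes, up to 6 called rises and 6 called falls per comparison, and the 3 smallest p where under 4 were called. Of each other list up to 4 genes with the smallest p were named, and CCNG2, CDC6, MKI67 and AURKA in any case. PTCH1, SCLT1, GAS1 and MYB at 6 h, CDKN1A and the values that show overlap or single arrays were added after the data were seen. Replicate numbers were checked as pairs: of 24 pairs of same-numbered arrays, 5 correlated over 0.1 in their deviations from group means (range -0.64 to 0.80), so they were not treated as pairs. Alternatives were no filter, a filter at 6 or within the fit, averaging all probe sets of a gene, a trended robust fit, repeated quantile normalization, median centring, a replicate block, a fit to all 25 arrays, the replicate 4 term and leaving out each replicate.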

Additional observations from a re-analysis of the deposited data

Results flagged for a closer look

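On the 4 arrays of BT20 at 0 min, 1 array lay far from the other 3 for 5 of 43 cilium genes, a distance that chance gives in about 1 group in 20. The share of all genes with such an array is not given here. Replicate 4 also correlated less with the other 0 min arrays (0.971 to 0.975) than with the 6 h arrays (0.99 to 0.992), a trait not particular to cilium genes. Replicate 4 was the array apart for 4 of the 5. The chaperonin BBS10 read 7.77 there (others 5.35 to 5.62), the IFT-B subunit IFT81 read 5.82 (others 4.15 to 4.39), the IFT-A subunit WDR35 read 7.48 (others 6.50 to 6.53) and the transition zone protein TMEM231 read 5.80 (others 5.23 to 5.29). For TCTN1 replicate 3 was low, at 4.78 (others 4.96 to 4.99).

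The 24 h change differed between lines, by an interaction term in limma adjusted over all genes, for 10 of the 42 cilium genes against MDA-MB-453 and 6 against MCF. Of all genes, 11.4% were called higher and 10.4% lower in BT20 against MDA-MB-453, and 8.53% and 4.92% against MCF. The counts of cilium genes lie near these shares. BT20 minus MDA-MB-453 was 1.68 for IFT172, 1.19 for IFT140, 0.89 for IFT27, 0.81 for IFT122, 0.60 for IFT80, 0.57 for IFT74, 0.55 for TTC8, 0.47 for IFT46, -0.75 for CC2D2A and -1.10 for TMEM231. BT20 minus MCF was 1.98 for BBS12, 1.47 for IFT172, 1.24 for IFT140, 0.60 for IFT80, -0.99 for CC2D2A and -1.31 for WDR35. The cause of these differences was not tested.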

How the results depend on the processing

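The number of cilium genes called moved by more than 1.5 times in 6 cases beside those that leave out an array. In BT20 at 6 h it was 5 with replicate 4 and the 6 h arrays set apart, against 21. In MDA-MB-453 it was 1 with the mean of probe sets and 0 with the replicate block, against 4; the block called 3 of all genes. Between BT20 and MDA-MB-453 it was 6 in the fit to all 25 arrays, against 10, and between BT20 and MCF it was 11 with the replicate block and 12 with replicate 4 set apart, against 6. The block moved no other count by this much. Calls over all genes moved too. In BT20 at 6 h the replicate 4 term gave 458 up and 456 down, against 3304 and 3275. Between BT20 and MDA-MB-453 the fit to all 25 arrays gave 972 higher and 900 lower, against 1439 and 1313. Between BT20 and MCF the block gave 1547 and 891 and the replicate 4 term 1590 and 935, against 1078 and 622. Leaving out 1 array at a time gave 0 to 0 at 30 min, 19 to 27 at 6 h and 22 to 30 at 24 h in BT20, 0 to 5 in MDA-MB-453, 0 to 0 in MCF, 7 to 13 and 3 to 12 for the differences from MDA-MB-453 and MCF, and 37 to 39 for levels at 0 min, BBS9 counted. Of the medians given above, some moved by more than the spread between replicates too: in BT20 to 0.10 at 6 h with replicate 4 set apart, against 0.19, to 0.28 at 24 h with the mean of probe sets, against 0.42, and to -0.12 at 30 min without 30 min replicate 2, against -0.06. For levels at 0 min the median was -0.58 with the mean of probe sets, against -0.95. With the mean of probe sets 2 called values changed sign, IFT27 at 6 h (0.08) and AHI1 at 0 min (0.09). Among the values of named genes 33 lost the call, in the same direction, under these alternatives and 56 with an array left out. In 515 and 420 the direction held and the gene stayed called or stayed not called. The cause was not tested. Values near or below 4 (BBS5, BBS12, IFT57, RFX1, RFX3, CDON, CAPS, GPR161) limit the size of a change.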
